A study of Mus musculus with 20 samples.

Results

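The 10 genes described here are *Synpr*, *Cntnap5a*, *Ctxn3*, *Lipo2*, *Rnf180*, *Ccl28*, *Angptl7*, *Mpped1*, *Timd2* and *Kcnip2*, taken by symbol from the 24762 genes in the joined count tables. They had been chosen from earlier results of these data because their RNA was near absent in one or more groups and differed strongly with testosterone or with genotype. The levels in wild type kidneys and the differences between genotypes are therefore given as descriptions, with no test. Poly(A) RNA of mouse kidney was measured in 4 groups of 5 libraries. All animals were males that had undergone orchidectomy, which removes the testes, and were then given either testosterone or vehicle for 4 days. The wild type groups (strain C57BL/6J) carried the normal androgen receptor. The ARLmon/Y groups, listed under the same strain, carried the ARLmon allele of the X-linked androgen receptor gene, known as a knock-in that disturbs pairing of the receptor's ligand-binding domains. Every group, controls included, thus lacked testes, and the allele is present in every cell of the animal rather than in the kidney alone. The sources used here give neither the animals' ages nor a mouse for each library, so p-values measure the spread between these samples.

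The androgen receptor is a transcription factor that binds DNA after it has bound testosterone or a related hormone. The mouse kidney, above all its proximal tubule, is a classical androgen target, and the abundance of many of its transcripts differs between males and females. The 10 genes do not form one pathway. *Ccl28* and *Angptl7* encode secreted proteins, *Synpr*, *Cntnap5a* and *Ctxn3* encode membrane proteins better known from nerve cells, *Lipo2*, *Rnf180* and *Mpped1* encode enzymes or enzyme-like proteins, *Timd2* encodes a cell-surface receptor, and *Kcnip2* encodes a potassium channel subunit.

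The description "near silent without androgen action" fitted some of these genes and not others. A group mean below 0.5 CPM (a gene's count per 1000000 reads of the normalized library) was taken as near absent. In wild type kidneys with vehicle, 4 of the 10 genes were below it (*Synpr*, *Cntnap5a*, *Lipo2* and *Rnf180*), beside 37.8% of all 24762 genes. In each ARLmon group 6 genes were below it, the same 4 with *Ctxn3* and *Mpped1*, beside 37.4% of all genes with vehicle and 37.2% with testosterone. In wild type kidneys with testosterone none of the 10 was, beside 38.3% of all genes. *Ccl28* and *Angptl7* were low but present in every library. *Timd2* was about equally high in both wild type groups and low, though not absent, in both ARLmon groups. *Kcnip2* went against the description, as it was lowest in wild type kidneys with testosterone.

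Upstream DNA of 3 genes is shown because these genes were among those nearest to absent outside the wild type testosterone group, and that of *Angptl7* because its start lies inside another gene. Sequences were read from RefSeq windows of 300 bases (250 before and 50 after each annotated start, GRCm38.p6), which matched 8 of the 10 genes in 12 windows. *Cntnap5a* and *Ctxn3* had no entry. Each run is given 5′ to 3′ on the gene's strand, without bases that lie in an annotated exon or, at the gene's edge, in the gene itself. Capitals mark the half-sites TGTTCT or AGAACA, the TATAAA word on either strand, and any stretch that differs from the full androgen response element (AGAACA, any 3 bases, TGTTCT) at no more than 3 of its 12 fixed bases. *Rnf180* is shown at its second annotated start, at chr13:105293015-105293264 on the minus strand, within the *Rnf180* gene. *Synpr* is shown at chr14:13284639-13284779 on the plus strand, *Lipo2* at chr19:33762023-33762201 on the minus strand, and *Angptl7* at chr4:148500463-148500712 on the minus strand.
Rnf180: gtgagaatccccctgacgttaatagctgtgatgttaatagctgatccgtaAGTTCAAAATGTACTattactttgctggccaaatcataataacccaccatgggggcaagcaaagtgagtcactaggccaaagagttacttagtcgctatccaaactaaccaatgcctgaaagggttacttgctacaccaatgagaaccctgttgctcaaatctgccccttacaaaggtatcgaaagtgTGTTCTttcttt
Synpr: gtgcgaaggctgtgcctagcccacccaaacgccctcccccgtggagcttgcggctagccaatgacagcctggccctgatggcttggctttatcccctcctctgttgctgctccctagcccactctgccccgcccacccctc
Lipo2: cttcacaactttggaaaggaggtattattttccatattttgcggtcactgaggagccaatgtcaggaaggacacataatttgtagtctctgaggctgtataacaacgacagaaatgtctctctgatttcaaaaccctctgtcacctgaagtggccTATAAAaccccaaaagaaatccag
Angptl7: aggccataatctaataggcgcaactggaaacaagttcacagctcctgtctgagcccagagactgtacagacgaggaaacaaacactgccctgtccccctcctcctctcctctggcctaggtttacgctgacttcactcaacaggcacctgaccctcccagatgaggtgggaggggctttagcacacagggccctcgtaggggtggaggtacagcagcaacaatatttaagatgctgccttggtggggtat

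No window of the 8 genes held the full element with at most 2 mismatches, which 1.84% of all 32851 windows did. With at most 3 mismatches 1 gene had a match, *Rnf180*, at its second start, where the best 15 bases were AGttCAaaaTGTaCT, with capitals for the fixed bases that matched. The match lay from base -200 to base -186 relative to the start, and 14.5% of all windows held one at this tolerance. A half-site on either strand was found in *Rnf180* alone of the 8 genes and in 19% of all windows. TATAAA on either strand was found in *Lipo2* alone and in 13.6% of all windows. The half-site is part of the full element, so these searches overlap, and a match is a description of letters in this window, not of a bound site.

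Reads assigned to genes numbered 8342000 to 38101526 per library. The wild type testosterone libraries were the shallowest as a group (8342000 to 15422018) and the wild type vehicle libraries the most uneven (8618311 to 38101526). Markers of kidney cell types were present in every library. The summed level of 8 markers of the straight proximal tubule ran from 5350 to 6840 CPM with testosterone in wild type, from 1720 to 2800 with vehicle, and from 981 to 2110 over both ARLmon groups. Of these 8 markers, 5 were called higher and none lower with testosterone in wild type, against 9.36% and 6.36% of all tested genes. Between genotypes with vehicle, 5 were lower in ARLmon and none higher, against 2.38% and 1.99%. Between genotypes with testosterone, 4 were lower in ARLmon and 2 higher, against 15.5% and 15.6%. Of 8 markers of the convoluted proximal tubule, 1 was higher and 2 were lower with testosterone in wild type. The summed straight-tubule level moved with most of the 10 genes, and its part in their levels was not tested. In bulk tissue, fewer cells of a type and less RNA per cell cannot be told apart. A list of 12 nerve and glia markers summed to between 6.71 and 12.2 CPM over all 20 libraries. Of the 12, 3 could be tested, and none of these was changed by testosterone in either genotype. Adrenal gland markers (4 of 6 in the tables) summed to at most 34.9 CPM in the ARLmon vehicle libraries and 2.28 CPM in the others. *Cyp11b1*, the adrenal steroid hydroxylase gene, stood at 9 CPM in GC078620 of that group and at 0 in the other 19 libraries. Its part in the results was not tested, and GC078620 was not a far library for any of the 10 genes.

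Across all genes, 15.7% of the 15549 tested were called between testosterone and vehicle in wild type (edgeR quasi-likelihood test, Benjamini-Hochberg adjusted p below 0.05), and 0% in ARLmon. Between genotypes, 4.37% were called with vehicle and 31.1% with testosterone. All 10 genes passed the filter on low counts over the 20 libraries, but in the 10 ARLmon libraries alone only *Ccl28*, *Angptl7*, *Timd2* and *Kcnip2* did. The libraries of the wild type groups did not overlap for 9 of the 10 genes, 8 of them higher with testosterone and 1 (*Kcnip2*) lower, against 8.34% and 4.21% of all tested genes. The rule used this contrast, and nothing further is read from the count.

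**Figure D1:**
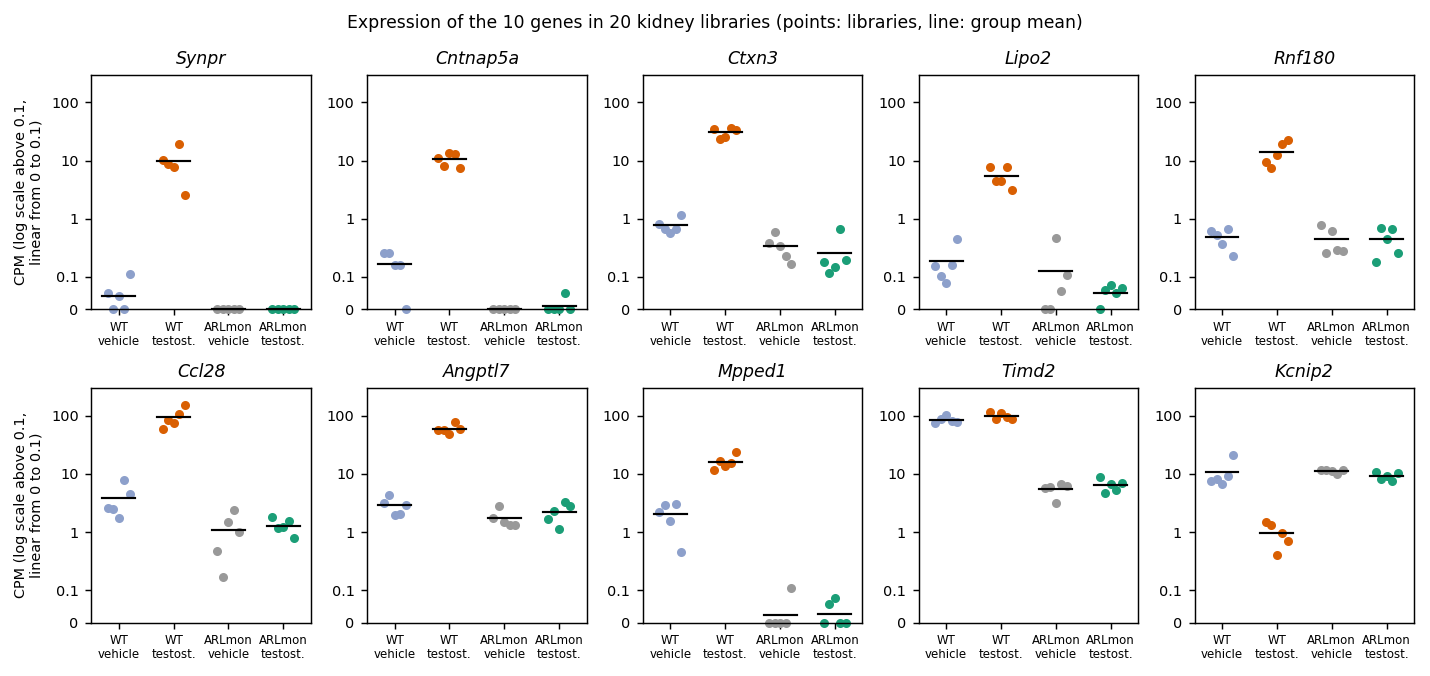
CPM of each of the 10 genes (y axis, logarithmic above 0.1 and linear from 0 to 0.1) in the 5 libraries of each group (points), with the group mean as a line. The panels of 8 genes show the wild type testosterone points above all others, *Timd2* shows both wild type groups above both ARLmon groups, and *Kcnip2* shows the wild type testosterone points below all others.

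Among the membrane proteins known from nerve cells, *Synpr* (chr14:13284780-13615469) encodes synaptoporin, a synaptic vesicle protein of the synaptophysin family. The 5 wild type testosterone libraries held 76, 73, 59, 256 and 26 reads of *Synpr*, or 10.3, 8.82, 7.82, 18.9 and 2.57 CPM. With vehicle the wild type libraries held 1, 0, 1, 0 and 1 reads, and all 10 ARLmon libraries held 0. Every wild type testosterone library was thus above every other library, although the highest and the lowest of them were far apart. From summed reads, *Synpr* was 383-fold higher with testosterone than with vehicle in wild type (95% counting interval 130 to 1870), where the vehicle group rests on 3 reads. Over ARLmon it was at least 242-fold higher against vehicle and at least 248-fold higher against testosterone, from a floor of 3 reads over the group. A count of 0 allows up to 0.04 CPM in the ARLmon vehicle group and 0.0391 CPM in the ARLmon testosterone group. Such intervals and floors cover counting error only.

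*Cntnap5a* (chr1:115684737-116587323) encodes a contactin-associated protein of the neurexin superfamily. Wild type kidneys with testosterone held 11, 8.09, 13.2, 12.8 and 7.42 CPM, a mean of 10.5 ± 2.67 CPM (SD, n = 5). With vehicle, the wild type libraries held 5, 5, 4, 6 and 0 reads. In ARLmon the group with vehicle held 0 reads and the group with testosterone 1 read. *Cntnap5a* was therefore low, but in 4 of 5 libraries not at 0, in wild type kidneys with vehicle, and the libraries of that group overlapped those of both ARLmon groups because 1 of them was at 0. Its mean was 62.7-fold higher with testosterone than with vehicle in wild type. It was at least 263-fold above the ARLmon vehicle group, and the ratio to the ARLmon testosterone group was 814 (95% counting interval 145 to 32200).

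*Ctxn3* encodes cortexin 3, a small membrane protein. With testosterone, wild type kidneys held 35.4, 23.6, 24.9, 35.6 and 33.6 CPM, a mean of 30.6 ± 5.91 CPM (SD, n = 5). With vehicle they held 0.822, 0.678, 0.57, 0.658 and 1.14 CPM. The ARLmon libraries held 0.389, 0.598, 0.336, 0.229 and 0.165 CPM with vehicle and 0.178, 0.117, 0.149, 0.658 and 0.196 CPM with testosterone. The last 3 groups formed a low range whose means (0.773, 0.343 and 0.26 CPM) differed far less from each other than from the wild type testosterone mean. The wild type testosterone mean was 39.6-fold above wild type vehicle, 89.2-fold above ARLmon vehicle and 118-fold above ARLmon testosterone, the last value being 191-fold without library GC078615. As a level per length in wild type kidneys with testosterone, *Ctxn3* stood at 19.1 CPM per kilobase, *Synpr* at 1.03 and *Cntnap5a* at 0.961. On the same scale the highest of the 10 were *Timd2* at 28.7 and *Angptl7* at 27.6.

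Among the enzymes and enzyme-like proteins, *Lipo2* (chr19:33719670-33762022), a member of the acid lipase family, was near absent in 3 groups. With testosterone the wild type libraries held 58, 37, 33, 104 and 31 reads, or 7.87, 4.47, 4.37, 7.67 and 3.07 CPM. The wild type vehicle libraries held 3, 2, 2, 6 and 4 reads, the ARLmon vehicle libraries 0, 0, 7, 1 and 2, and the ARLmon testosterone libraries 0, 1, 1, 1 and 1. Testosterone-treated wild type kidneys stood apart from all others, and the other groups held a few reads each. The ratio of means to wild type vehicle was 28.8, and 44.1 without GC078606. The ratio to ARLmon vehicle was 43.1, and 131 without GC078619, which held 7 of the group's 10 reads. *Lipo2* is the least certain of the 10 by sequence, since 44.1% of the 50-base words in its GENCODE transcripts also occur in other genes, mostly *Lipo4*, *Lipo3* and *Lipo5*, and it overlaps *Lipo3* on the same strand in GENCODE M21. For the other 9 genes this share was at most 2.33% (*Timd2*).

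*Rnf180* (chr13:105130567-105294818) encodes a RING-type E3 ubiquitin ligase that is anchored in membranes. In wild type kidneys with testosterone it stood at 9.37, 7.37, 12.3, 19.5 and 22.3 CPM, a mean of 14.2 ± 6.45 CPM (SD, n = 5). The wild type vehicle, ARLmon vehicle and ARLmon testosterone means were 0.478, 0.44 and 0.45 CPM, with single libraries from 0.178 to 0.778 CPM. No order could be read among these 3 groups, which differed by less than the spread of their libraries. The wild type testosterone mean was 29.6-fold above wild type vehicle and 31.5-fold above ARLmon testosterone.

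*Mpped1* (chr15:83779472-83858487) encodes a metallophosphoesterase-domain protein and differed from the genes above in its wild type vehicle level. Wild type kidneys with vehicle held 43, 55, 38, 113 and 4 reads, or 2.21, 2.87, 1.55, 2.97 and 0.455 CPM. With testosterone its level was 11.8, 16.7, 13.5, 15.3 and 23.6 CPM in the 5 wild type libraries. In ARLmon, 1 of 5 vehicle libraries held 2 reads, 2 of 5 testosterone libraries held 1 read each, and the other 7 held 0. The 4 groups thus formed 3 levels, with wild type vehicle below wild type testosterone and above both ARLmon groups, and no overlap between the levels. The ratio of testosterone to vehicle in wild type was 8.04. The ratio of wild type to ARLmon was 86.4 with vehicle (95% counting interval 23.7 to 717) and 633 with testosterone (175 to 5240).

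The secreted proteins were low, but counted, in every library outside the wild type testosterone group. *Ccl28* (chr13:119623819-119654359) encodes a chemokine of mucosal surfaces that attracts lymphocytes. Its levels in wild type kidneys with testosterone were 59.6, 83.5, 74.8, 107 and 151 CPM, a mean of 95.3 ± 35.7 CPM (SD, n = 5). With vehicle the levels were 2.57, 2.45, 1.71, 7.71 and 4.55 CPM, a mean of 3.8 ± 2.43 CPM. The ARLmon libraries ran from 0.171 to 2.35 CPM with vehicle and from 0.783 to 1.78 CPM with testosterone. Wild type kidneys with testosterone were separate from the rest, at 25.1-fold wild type vehicle and 73.9-fold ARLmon testosterone. The wild type vehicle mean was 3.48-fold above that of ARLmon vehicle, with overlapping libraries.

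*Angptl7* (chr4:148495181-148500462) encodes a secreted angiopoietin-like protein. It had 56.6, 55.7, 48.4, 78.7 and 58.9 CPM in wild type kidneys with testosterone (mean 59.6 ± 11.4 CPM, SD, n = 5). With vehicle, the wild type libraries held 3.13, 4.38, 1.95, 2.03 and 2.96 CPM. In ARLmon, the vehicle libraries ran from 1.32 to 2.82 CPM and the testosterone libraries from 1.12 to 3.24 CPM. The 3 low groups overlapped one another, and the wild type testosterone mean was 20.6-fold above wild type vehicle. *Angptl7* lies within *Mtor* on the opposite strand, where none of the 70 *Mtor* exons listed in GENCODE M21 overlaps it. The library kit marks the strand, and the strand setting of the counting is not given in the sources used here, so reads from unspliced *Mtor* RNA cannot be told apart from *Angptl7* reads if strand was ignored.

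*Timd2* (chr11:46668960-46707107) encodes a T cell immunoglobulin and mucin domain receptor known to bind H-ferritin and semaphorin 4A. The wild type libraries held 74.4, 85.8, 104, 81.3 and 78.2 CPM with vehicle and 114, 87.9, 112, 95.7 and 89.1 CPM with testosterone. The ARLmon libraries held 5.76, 5.9, 3.15, 6.65 and 6.21 CPM with vehicle and 8.89, 4.62, 6.58, 5.22 and 7.05 CPM with testosterone. The 2 genotypes were apart under either treatment, while the 2 treatments overlapped within either genotype. The wild type to ARLmon ratio was 15.3 with vehicle and 15.4 with testosterone, and the testosterone to vehicle ratio in wild type was 1.18. With vehicle, *Timd2* and *Mpped1* were the 2 genes of the 10 whose wild type libraries all lay above all ARLmon libraries, against 2.39% of all tested genes. With testosterone 9 of the 10 lay above and *Kcnip2* below, against 13.1% and 9.44%, in contrasts the rule used.

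*Kcnip2* (chr19:45792346-45816422) encodes an auxiliary subunit of Kv4 potassium channels. The wild type testosterone libraries held 11, 11, 3, 13 and 7 reads, a mean of 0.974 ± 0.449 CPM (SD, n = 5). The wild type vehicle libraries held 7.55, 8.19, 6.72, 9.29 and 20.9 CPM. The ARLmon libraries ran from 9.92 to 11.8 CPM with vehicle and from 7.44 to 10.8 CPM with testosterone. The 3 groups other than wild type with testosterone overlapped, with means from 9.2 to 11.2 CPM, and *Kcnip2* was lowest where the other 9 genes were highest. The wild type vehicle mean was 10.8-fold above the testosterone mean, and 8.15-fold without GC078606, the library at 20.9 CPM.

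The genes did not vary in step among the 5 wild type testosterone libraries. Library GC078611 was the lowest of the 5 for *Synpr* (26.6% of the group mean), *Cntnap5a* (70.5%) and *Lipo2* (55.9%). The same library was the highest for *Rnf180* (157%), *Ccl28* (159%) and *Mpped1* (146%). Library GC078610 was the highest for *Synpr* (195%), *Ctxn3* (116%) and *Angptl7* (132%). *Timd2* varied least, from 88.3% to 114% of its mean.

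**Figure D2:**
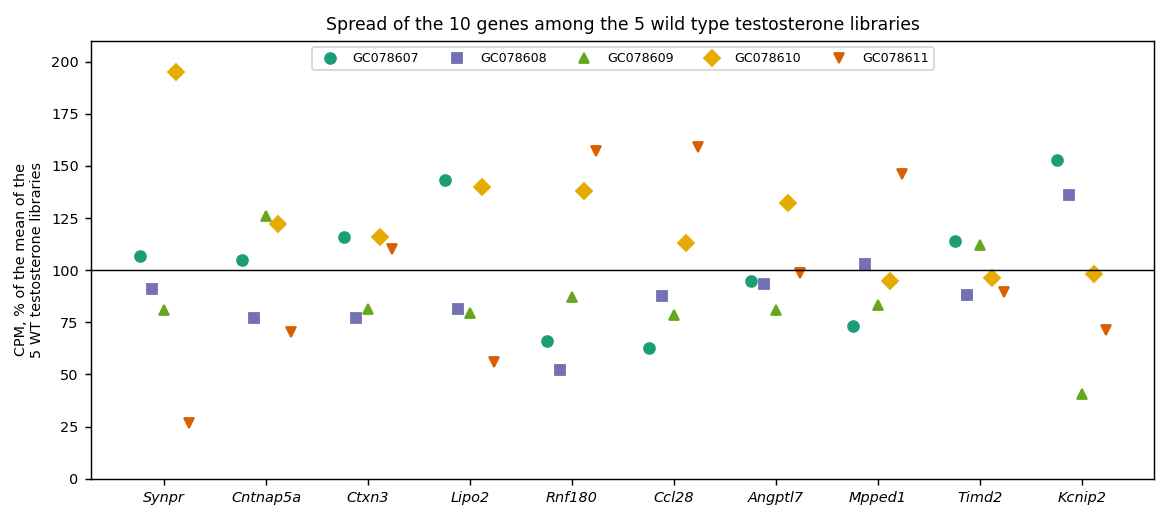
Level of each gene in each of the 5 wild type testosterone libraries (symbols), as a percent of that gene's mean over the 5 libraries (y axis, with a line at 100%). For *Synpr* the libraries ran from 26.6% to 195%, and GC078611 was lowest for *Synpr*, *Cntnap5a* and *Lipo2* and highest for *Rnf180*, *Ccl28* and *Mpped1*.

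Testosterone against vehicle in ARLmon kidneys could be tested for the 4 genes that passed the filter there. None was called (adjusted p 0.774 to 0.941, edgeR quasi-likelihood test), and none had an unadjusted p below 0.05. Across the genome 0 of 15549 genes were called, by DESeq2 and limma-voom as well, and 812 had an unadjusted edgeR p below 0.05. The log2 difference (testosterone minus vehicle) was 0.21 for *Timd2* (95% interval -0.18 to 0.59), -0.29 for *Kcnip2* (-0.81 to 0.23), 0.44 for *Angptl7* (-0.18 to 1.06) and 0.14 for *Ccl28* (-1.01 to 1.30). Changes within these intervals are not excluded by these data. The libraries of the ARLmon groups overlapped for each of the 4, where 0.778% of all tested genes did not overlap. For the other 6 genes no test is given, since their reads in ARLmon were too few to pass the filter. With vehicle and testosterone these were 24 and 22 reads of *Ctxn3*, 32 and 37 of *Rnf180*, 10 and 4 of *Lipo2*, 2 and 2 of *Mpped1*, 0 and 1 of *Cntnap5a*, and 0 and 0 of *Synpr*.

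**Figure D3:**
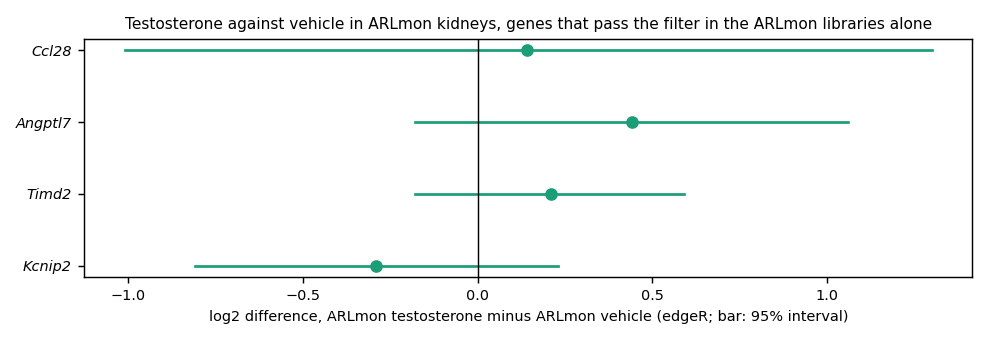
Log2 difference between testosterone and vehicle in ARLmon kidneys (x axis) with its 95% interval (bars) for the 4 genes that passed the filter on low counts in the ARLmon libraries alone. All 4 intervals include 0, and that of *Ccl28* is the widest, from -1.01 to 1.30.

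Relatives and binding partners were read from a list of 69 genes, of which 58 were in the tables and 39 passed the filter on low counts. The list was written with earlier results of these data known, so the shares called from it are descriptions. In wild type kidneys testosterone changed 19 of the 39 (48.7%, against 15.7% of all tested genes), 6 higher and 13 lower, and their median log2 difference was -0.31, against -0.03 over all tested genes. In ARLmon none of the 39 was called and 4 had an unadjusted p below 0.05. In wild type, 5 of 5 podocyte markers also fell with testosterone (summed level 292 to 363 CPM, against 379 to 573 with vehicle). So did 3 of 5 markers of smooth muscle and renin cells (206 to 257, against 279 to 541). No marker was called for endothelium, fibroblasts, thick ascending limb, distal convoluted tubule or collecting duct. The part of cell types in the changes of the relatives was not tested. The nearest expressed relative of *Lipo2*, *Lipo1*, rose from 17.4 ± 4.96 to 179 ± 52.1 CPM (SD, n = 5) with testosterone in wild type (log2 difference 3.35, SE 0.21, adjusted p = 3.16e-10) and stood at 11.9 and 12 CPM in ARLmon. *Lipo4* was near absent in all groups, at no more than 0.0333 CPM, and *Lipo3*, *Lipo5*, *Cntnap5b* and *Cntnap5c* had no counts under these symbols. It can therefore not be seen whether reads that fit both *Lipo2* and *Lipo3* or *Lipo5* were counted for *Lipo2*. *Mpped2*, the closest relative of *Mpped1*, rose by 1.04 (SE 0.17, from 6.72 to 13.9 CPM), and *Cpped1*, another phosphoesterase, by 0.44 (SE 0.09). *Angptl2*, a relative of *Angptl7*, fell by 0.41 on the log2 scale (SE 0.13), which no longer passed when GC078602, GC078603, GC078609, GC078610 or GC078611 was left out. *Angptl1*, *Angptl4* and *Angptl6* did not pass, with log2 differences of 0.94, 0.07 and -0.87.

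Among relatives of *Synpr*, the broadly expressed vesicle proteins *Sypl* and *Sypl2* rose (log2 differences 0.82 and 0.67), while *Syp*, which encodes synaptophysin, and *Sv2a*, a vesicle glycoprotein, fell (-0.64 and -0.48). *Rnf183* and *Rnf186*, which encode membrane-bound RING ligases of kidney and gut, fell (-0.85 and -0.89), as did *Maoa*, the monoamine oxidase known as a target of the *Rnf180* ligase (-0.65). Of the ligands of *Timd2*, the semaphorin *Sema4a* fell (-0.56), while the H-ferritin gene *Fth1* had a log2 difference of 0.10 (SE 0.13) that did not pass. The receptors of the *Ccl28* chemokine, *Ccr10* and *Ccr3*, were at no more than 0.105 CPM in any group. None of the potassium channel genes *Kcnd1* and *Kcnd3*, or the *Kcnip2* relative *Kcnip3*, passed in wild type, with log2 differences of -0.14, -0.33 and -0.35.

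Between genotypes with vehicle, 2 of the 39 relatives and partners differed (5.13%, against 4.37% of all tested genes), *Maoa* (0.77) and *Angptl2* (0.59), both higher in ARLmon, where 1.99% of all tested genes were higher and 2.38% lower. This count was 8 without wild type library GC078604 and 4 without GC078606. With testosterone, 24 of the 39 differed (61.5%, against 31.1%), 14 higher and 10 lower in ARLmon, against 15.6% and 15.5% of all tested genes. Scaled by library size alone, the count was 27, of which 21 were higher. The response to testosterone differed between the genotypes for 6 (15.4%, against 4.77%), among them *Sema4a* and *Maoa* with a positive interaction (1.42% of all tested genes) and *Lipo1*, *Mpped2* and *Sypl* with a negative one (3.34%).

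**Figure D4:**
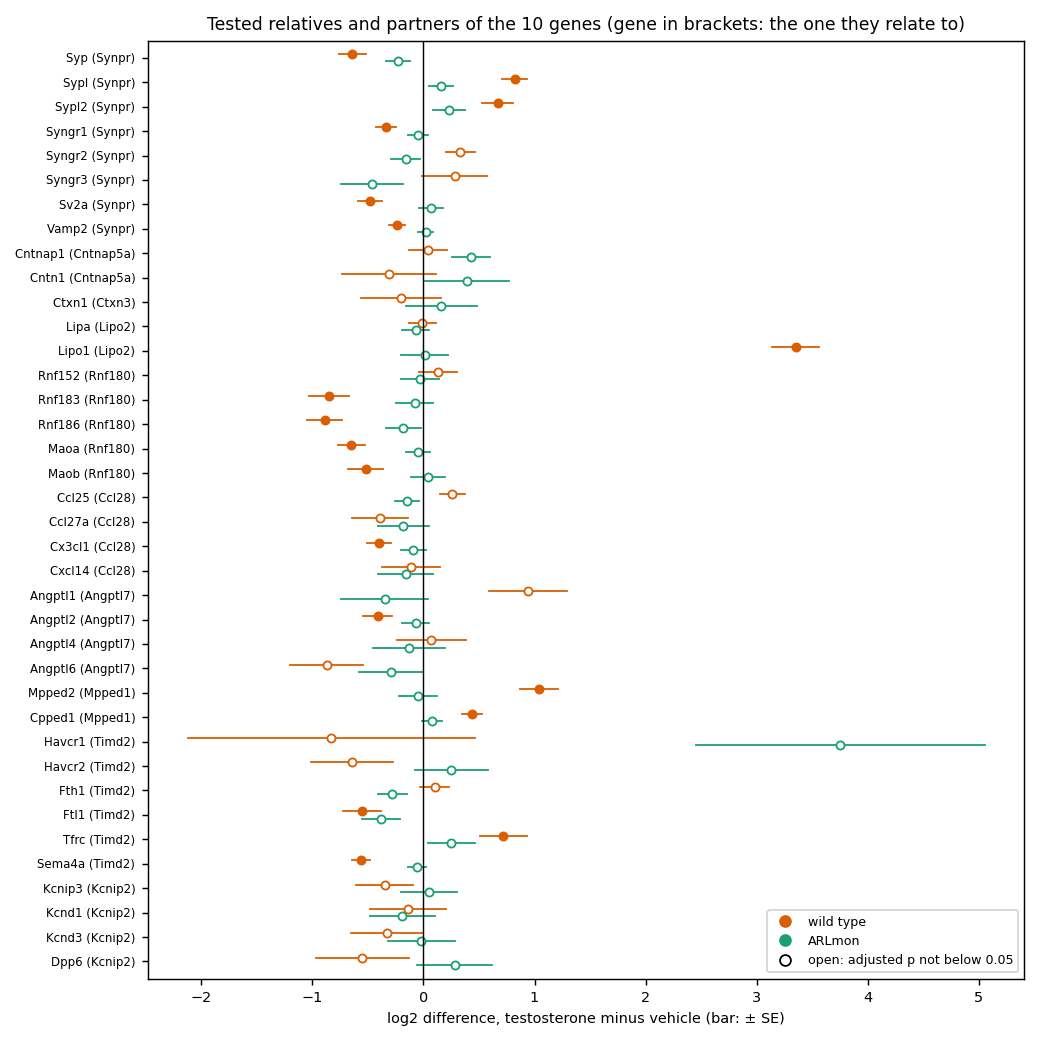
Log2 difference between testosterone and vehicle (x axis, bars ± SE) for 38 of the 39 tested relatives and partners, in wild type (orange) and in ARLmon (green), with filled points where the adjusted p was below 0.05. In wild type 6 points are filled to the right of 0 and 12 to the left, *Lipo1* at 3.35 being farthest to the right of the filled points, and no ARLmon point is filled.

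The chromosomal neighbours were examined because position was not used in choosing the genes. The nearest tested gene on each side gave 20 genes, at gaps of 0 to 3819685 bases. Of these, 7 rose with testosterone in wild type and none fell (35.0%, against 9.36% of all tested genes higher and 6.36% lower), and in ARLmon none was called, with 2 at an unadjusted p below 0.05. *Mtor*, which encodes the growth-regulating kinase and spans *Angptl7*, rose from 160 to 457 CPM (log2 difference 1.51, SE 0.16). Both neighbours of *Lipo2* rose, *Lipo1* and *Rnls*. *Lipo1* lies 14015 bases away and is also among the relatives above. *Rnls*, which encodes renalase, rose from 1.41 to 3.4 CPM (1.27, SE 0.24). *Hmgcs1*, a cholesterol synthesis enzyme gene 35992 bases from *Ccl28*, rose from 381 to 980 CPM (1.36, SE 0.16). *Npm3* beside *Kcnip2* rose by 1.13 (SE 0.19), opposite to *Kcnip2*, and *Thoc7* beside *Synpr* by 0.77 (SE 0.12) over a gap of 333543 bases. No neighbour of *Cntnap5a*, *Rnf180*, *Ctxn3*, *Mpped1* or *Timd2* was called in wild type.

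Between genotypes with vehicle none of the 20 neighbours was called by edgeR, and 6 had an unadjusted p below 0.05. With testosterone 8 were called, all lower in ARLmon (40%, against 15.5% of all tested genes lower). These were the 7 genes that rose in wild type and *Prrc1* beside *Ctxn3* (log2 difference -0.26), which no longer passed when GC078607, GC078609, GC078611, GC078612 or GC078615 was left out and whose difference was -0.02 with library size alone. Scaled by library size alone, 12 were called, of which 5 were higher. The response differed between genotypes for the same 7 genes that rose in wild type, all with a negative interaction (35.0%, against 3.34% of all tested genes), from -3.34 (*Lipo1*) to -0.83 (*Thoc7*).

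**Figure D5:**
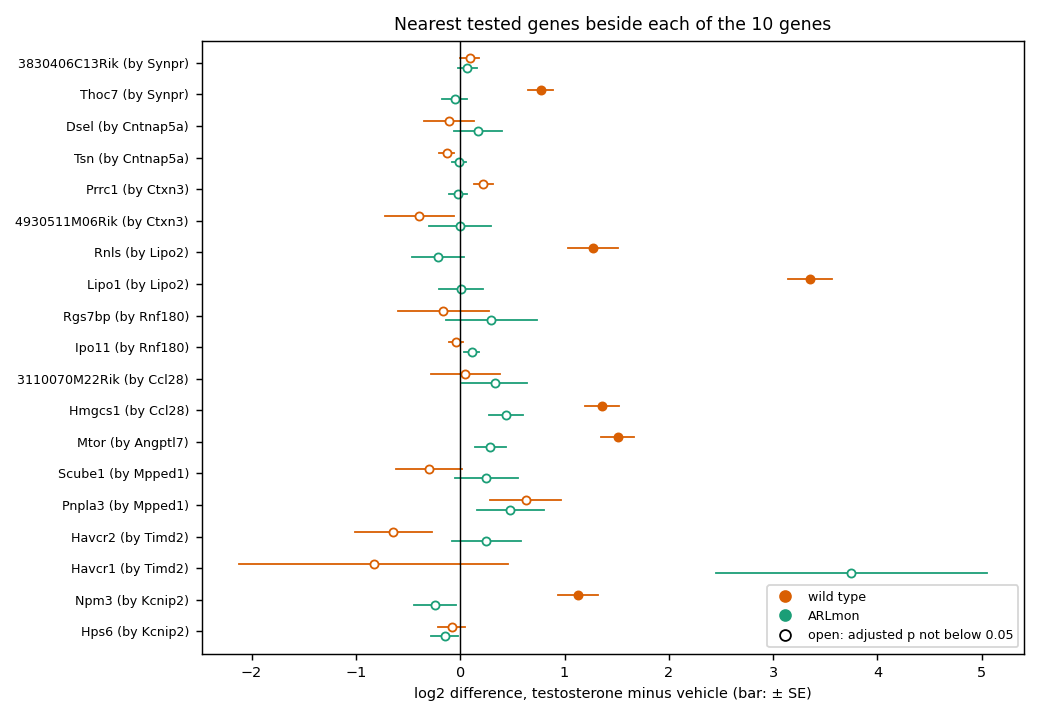
Log2 difference between testosterone and vehicle (x axis, bars ± SE) for 19 of the 20 nearest tested neighbours, named with the gene they flank, in wild type (orange) and ARLmon (green), with filled points where the adjusted p was below 0.05. In wild type 6 points are filled, all to the right of 0, and no ARLmon point is.

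For each of the 10 genes the most similar named genes were taken by Pearson's correlation of log2 CPM over the 20 libraries, which share groups and depth. Of the 20 pairs so found, Spearman's correlation gave 1 again, and the correlation of deviations from the group means gave 0. *Cntnap5a* was most like *Amacr*, a fatty acid racemase gene (r = 0.992), and *Lipo1* (0.99). *Ctxn3* and *Angptl7* shared a similar gene, *Hsd17b11*, which encodes a steroid dehydrogenase (0.981 and 0.979). It stood at 1050 CPM in wild type kidneys with testosterone and from 107 to 141 CPM in the other groups. *Synpr* and *Lipo2* shared *Hsd11b1*, the glucocorticoid-activating enzyme gene (0.982 and 0.964). *Rnf180* was most like *Smarca2* (0.98), *Ccl28* like *Kif20b* (0.967) and *Mpped1* like *Chst11* (0.982). *Timd2* was most like *Azgp1* (0.977), which held 80.8 and 141 CPM in wild type and 8.94 and 7.93 CPM in ARLmon with vehicle and testosterone. *Kcnip2* was most like *Slc6a4*, the serotonin transporter gene (0.965), which held 3.58 CPM in wild type kidneys with testosterone and from 11.2 to 12.3 CPM in the other groups.

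Over all 24762 genes, 27 had a mean below 0.5 CPM in at least 1 group and above 5 CPM in another, 6 of the 10 among them. Of the 27, 23 were highest in wild type kidneys with testosterone. Only 5 were near absent in all 3 other groups, and 4 of these were *Synpr*, *Cntnap5a*, *Lipo2* and *Rnf180*. The 10 genes had been chosen for a pattern of this kind, so nothing is read from their share of these counts. The highest of the other genes was *Slco1a1*, an organic anion transporter gene, at 1430 CPM in wild type with testosterone, 19.5 with vehicle, and 0.32 and 0.348 in ARLmon. *Pzp* (226 CPM) and *Cyp2b10* (26.6 CPM) were also highest in wild type with testosterone and near absent in both ARLmon groups. *Ugt1a2*, a glucuronosyltransferase gene, was lowest in wild type with testosterone (0.217 CPM), as *Kcnip2* was. Unlike *Kcnip2*, it was also far lower in wild type with vehicle (5.05 CPM) than in ARLmon (239 and 230 CPM).

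In the deposited log2 table the same group was highest for 10 of 10 genes, and the whole order of the groups was the same for 6. For *Synpr*, *Lipo2*, *Rnf180* and *Kcnip2* the table swapped a pair of groups whose libraries overlapped in CPM. For *Lipo2* these were the ARLmon groups, which hold 10 and 4 reads.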

How the data were processed

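The 10 genes, the lists of relatives and markers and the comparisons were chosen with earlier results of these data known. Per the submitters' processing notes, the authors used FastQC 0.11.7, HISAT2, SAMtools 1.5, HTSeq 2.7.14 (as listed), DESeq2 and the mm10 build. Settings, annotation and the strand setting of the counting are not given in the sources used here. The authors deposited 4 tables of raw counts per gene, each for a pair of groups with 10 libraries, and a Qlucore table of log2 values. No source used here states how the latter was normalized. The count tables agreed in every shared value and were joined into 24762 genes by 20 libraries. A gene absent from a pair's table was set to 0 there (12045 values in 1713 genes), so at most 1 read per pair is lost. Columns carry library codes (GC078602 to GC078621) whose group comes from the headers of the log2 table.

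Tests used the quasi-likelihood F test of edgeR 4.0.16 (R 4.3.3) with 4 group means and all 20 libraries, after filterByExpr, which left 15549 genes, and TMM scaling. Calls needed a Benjamini-Hochberg adjusted p below 0.05 over those genes. CPM uses TMM-scaled library sizes. A ratio is of group means. Where a group had 1 to 3 reads it is of summed reads with an exact 95% counting interval, and at 0 reads it is a bound from 3 reads over the group. Relatives were named if called in any contrast, at most 12 by smallest p, with nearest paralogues and, chosen after their values were seen, some that did not pass; neighbours if called. Positions are those of RefSeq on GRCm38.p6, and overlaps and 50-base words came from GENCODE M21. The test was also run on simulated counts in which genes were changed in the ARLmon testosterone group only. Differences between the other groups were not simulated, and no outcome is given here. Alternatives were RLE factors, library size alone, no filter, limma-voom (limma 3.58.1), DESeq2 1.42.0, the 10 libraries of a pair, each library left out, and, added after the data were seen, a fit without GC078604 and GC078618, which lay farthest along the main axis of variation within groups in an earlier analysis. Also set after the data were seen, the ARLmon test is given only for genes that pass the filter in the 10 ARLmon libraries alone. Figures used matplotlib 3.10.9. Results for some genes are not reported here.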

Additional observations from a re-analysis of the deposited data

Results flagged for a closer look

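Among the 10 genes, 37 sets of 5 libraries were screened for a library far from the others, and 8 had one. The screen's rate of about 1 in 20 by chance assumes continuous, normally distributed values. It does not hold for sets of a few reads, such as those of *Cntnap5a*, *Mpped1* and *Lipo2* below. No excess of far libraries is therefore read from the count. In wild type with vehicle, library GC078606 stood apart for *Lipo2* (0.455 CPM) and for *Kcnip2* (20.9 CPM). In ARLmon with vehicle, GC078619 stood apart for *Lipo2* (0.47 CPM, high) and *Timd2* (3.15 CPM, low), GC078618 for *Angptl7* (2.82 CPM) and GC078621 for *Mpped1* (0.11 CPM, 2 reads where the other libraries held 0). In ARLmon with testosterone, GC078615 stood apart for *Ctxn3* (0.658 CPM) and *Cntnap5a* (0.0506 CPM, a single read).

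*Havcr1*, the kidney injury marker and neighbour of *Timd2*, had a far library in each group: GC078606 (17.5 CPM), GC078611 (7.22 CPM), GC078612 (105 CPM) and GC078619 (4.5 CPM). *Timd2* shares at most 2.33% of its 50-base words with *Havcr1* and other genes.

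The log2 response to testosterone differed between genotypes (ARLmon minus wild type, edgeR interaction term) for 10 named relatives and neighbours. It was smaller in ARLmon for *Lipo1* (-3.34), *Sypl* (-0.66), *Mpped2* (-1.09), *Mtor* (-1.23), *Hmgcs1* (-0.92), *Thoc7* (-0.83), *Npm3* (-1.37) and *Rnls* (-1.48), all of which rose in wild type. It was less negative for *Sema4a* (0.50) and *Maoa* (0.60), both of which fell in wild type.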

How the results depend on the processing

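No paired analysis was possible because the count columns carry library codes without the replicate numbers of the labels. The count of genes called between testosterone and vehicle in ARLmon, among the 4 of the 10 that could be tested there, was 0 in each alternative run. The number of relatives and partners that differed between genotypes with vehicle was 2, but 4 with library size alone, 4 with limma-voom, 5 with DESeq2, and 2 to 8 with each library left out. The other counts over relatives ran from 15 to 20 (wild type response) and from 20 to 26 (genotypes with testosterone) with each library left out, and those over neighbours from 7 to 7 and from 7 to 9. Scaling by library size alone moved the median log2 difference of all genes from -0.03 to -0.18 in wild type and from 0.04 to 0.28 between genotypes with testosterone. With a limit of 0.2 CPM in place of 0.5, 3 genes were near absent in wild type with vehicle (30.7% of all genes). In each ARLmon group 4 were (30.5% with vehicle, 30.2% with testosterone), and *Rnf180* was in none of these counts. With a limit of 1 CPM, 5 were near absent in wild type with vehicle (42.8%) and 6 in each ARLmon group (42.2%). At that limit 1 gene (*Kcnip2*) was near absent in wild type with testosterone (43.2%). Near-absent genes numbered 3 to 4 in wild type with vehicle and 5 to 6 in ARLmon with testosterone with a library left out. Without GC078604 and GC078618 the sign of the ARLmon response turned for *Ccl28* (-0.09), and with each library left out it ran from -0.08 to 0.64, not called. Causes of these changes were not tested. For relatives and neighbours, 58 results that were called in the main fit were followed, so a call could only be kept or lost. Of 1565 alternatives for them, 1482 kept direction and call, 83 lost the call and none reversed. The losses fell in 15 of the 58 results. Below about 3 reads per group, depth allows only bounds. The wild type testosterone libraries are the shallowest.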
